A study of Homo sapiens with 18 samples.

Results

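The comparison described here sets U2OS cells that carried an estrogen receptor beta (ERβ) vector and had received doxycycline and E2 against U2OS cells that carried an estrogen receptor alpha (ERα) vector and had received the same agents. It rests on 6 of the 18 arrays of the series, 3 on each side, chosen by the vector and treatment given in their labels. The difference between the same lines before either agent was added, measured on another 6 arrays, is set beside it. U2OS is a human osteosarcoma cell line, doxycycline is an antibiotic that switches on vectors built to respond to it, and E2 stands for estradiol, the main estrogen. The lines were stable transfectants of U2OS, total RNA was read on single-colour Illumina arrays, and the remaining 2 groups, which had received doxycycline but no E2, are used below to place each difference in the order of treatments.

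The groups with doxycycline and E2 are called liganded and those with neither agent uninduced, and both terms refer to the treatment only. No untransfected or empty-vector U2OS cells, doses, treatment times or numbers of clones per line are given in the sources used here. A difference between the lines therefore combines the receptor, the vector's place of insertion and whatever else separates a pair of transfected lines. These cannot be told apart in the liganded or in the uninduced groups. Whether the 3 samples per group were grown separately is not stated, so p-values measure only the scatter of the arrays and part of it may be technical. All values are from bulk RNA, in which fewer cells that express a gene and less of its RNA per cell cannot be told apart.

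ERα and ERβ are nuclear receptors that bind estradiol and then regulate genes through estrogen response elements in DNA or through other bound factors such as AP-1. Their DNA-binding domains are nearly identical, whereas their amino-terminal activation domains differ. ERα is known for driving proliferation in breast and uterus, ERβ for restraining it in several cell models, and both are expressed in bone, where estrogen limits bone loss.

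Of 13505 genes with a detected probe, 6335 differed between liganded ERβ and liganded ERα cells, 3049 higher and 3286 lower in ERβ (limma, Benjamini-Hochberg adjusted p below 0.05). These are 46.9% of the genes tested, 22.6% in the higher and 24.3% in the lower direction. The uninduced lines differed at 6821 genes or 50.5%, with 3570 higher (26.4%) and 3251 lower (24.1%) in the ERβ line. Levels are log2 of the normalized signal, differences are ERβ minus ERα on that scale, errors are standard errors (SE) of the fit with 3 arrays per group, and "called" means past this threshold. Because close to 1 in 2 genes was called at either stage, the counts of any gene list below are read against these shares. In 6197 of the 6335 liganded calls the arrays of the lines did not overlap, and 1749 were at least 2-fold, 799 higher and 950 lower.

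Much of the liganded difference was already there before induction. Of the liganded calls, 4204 (66.4%) were called in the same direction in the uninduced lines, which is 61.6% of the uninduced calls, and 363 were called in the opposite direction. Among the 1749 liganded calls of at least 2-fold, 1372 (78.4%) were called with the same sign before induction. Across the 13505 genes the liganded and uninduced differences correlated at r = 0.734 (Spearman's rho 0.664). The stages share the same lines and probes but no array, and genes are not independent replicates. RNA of ESR2, the gene of ERβ, was already at least 31.2-fold higher in the uninduced ERβ line. The uninduced difference is therefore not one without the receptor's RNA.

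The change of the line difference from the uninduced to the liganded stage was tested gene by gene in the same fit. It was called for 2481 genes (18.4%), with 1086 moving up (8.04%) and 1395 moving down (10.3%) in ERβ relative to ERα. Together the tests put each gene in a class. For 3553 genes, 56.1% of the liganded calls, the difference was called at both stages in 1 direction and its change was not called; for 262 it was called and larger with ligand, and for 389 smaller. A further 645 genes (10.2% of the liganded calls; 312 higher, 333 lower) were called in the liganded but not in the uninduced cells, with a called change, 363 turned direction (153 to higher and 210 to lower in ERβ), and 801 had an uninduced difference that was no longer called, with a called change towards 0. Another 1123 liganded calls were not called before induction but had no called change, so they are placed in neither set. In both uninduced lines the probe was undetected for 109 of the 645 genes, 11 of the 262 and 6 of the 363, so for these the size and direction of the uninduced difference were not measured, whatever its call.

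**Figure D1:**
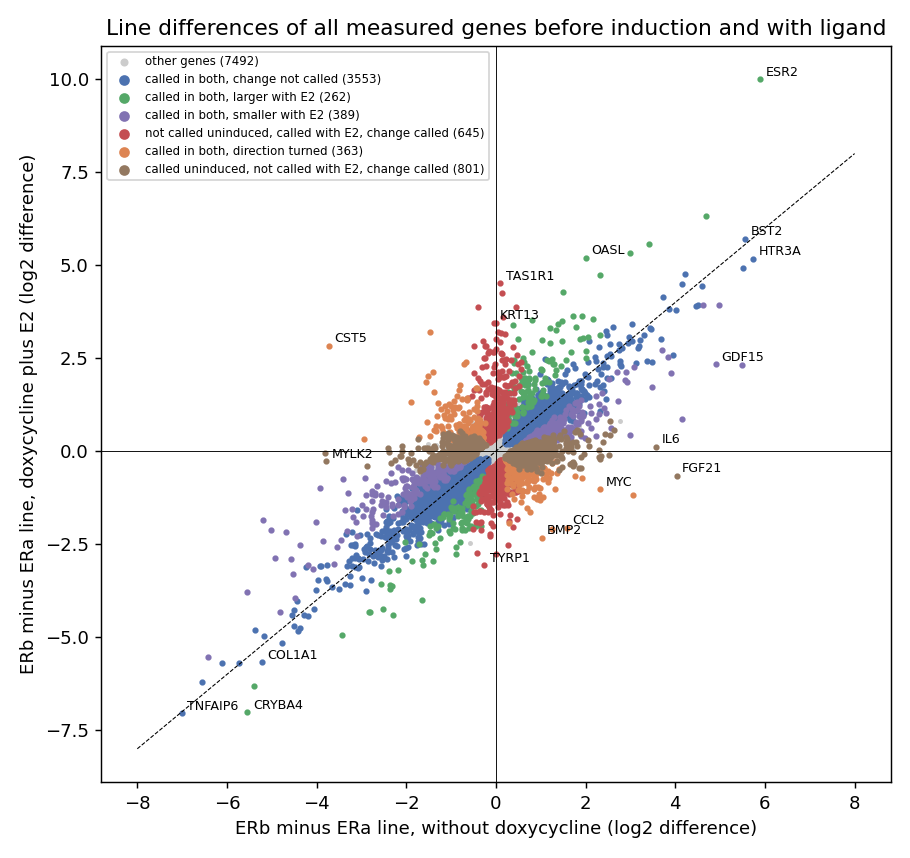
Each point is 1 of 13505 genes, with the uninduced ERβ minus ERα difference (log2) on the horizontal axis and the liganded difference (log2) on the vertical axis. Colours give the classes with their numbers of genes, and the dashed line marks equal differences. Most called genes follow the dashed line, as COL1A1 and BST2 do, the 645 genes that were called with ligand, not called uninduced and had a called change lie along the vertical axis, and the 801 that were called uninduced, not called with ligand and had a called change lie along the horizontal axis.

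The receptor transcripts were examined first as a check of the labels. ESR2, which encodes ERβ, had log2 levels of 16.03, 16.05 and 16.03 on the liganded ERβ arrays and of 6.33, 5.28 and 6.52 on the liganded ERα arrays, 2 of which were detected (probe ILMN_2390457). The liganded difference was 9.99 ± 0.22 (adjusted p = 1.14e-13). The ERβ line already expressed ESR2 without doxycycline, at 11.39, 11.29 and 11.10, where no uninduced ERα array had a detected signal, which makes it at least 31.2-fold higher before induction. The lines were thus distinct for this receptor at both stages. The fitted change of the gap was 4.10 (adjusted p = 6.67e-07), but its size was not measured, since the uninduced ERα arrays were undetected. In liganded ERβ cells the probe stood at 90.9% to 94.2% of the brightest probe of its array, where the scale may compress further rises. A second probe, ILMN_1740045, read 15.85, 15.79 and 15.70 in liganded ERβ cells and was undetected on all liganded ERα arrays.

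ESR1, which encodes ERα, had 1 probe, and it stayed near background. Its levels were 6.36, 6.04 and 6.62 on the liganded ERα arrays, 2 of them detected, and 5.19, 5.28 and 5.87 on the liganded ERβ arrays, none detected. The difference of -0.89 ± 0.23 (adjusted p = 0.00523) followed an uninduced one of -1.32 ± 0.23, and its change was not called (adjusted p = 0.444). No source used here places this probe relative to the cloned receptor sequence, so its level is no test of whether the ERα vector was switched on. Of 20 measured receptors and cofactors, 6 were higher and 6 lower in liganded ERβ, against 22.6% and 24.3% of all genes. Before induction 4 were higher and 11 lower, against 26.4% and 24.1%. NR2F1, an orphan nuclear receptor, was lower by 2.93-fold (adjusted p = 2.07e-06) and had been lower by 2.69-fold before induction. VDR, the vitamin D receptor of bone, was lower by 2.27-fold (adjusted p = 8.45e-04), and its uninduced difference of -0.55 was not called (adjusted p = 0.0681).

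Markers of cell type were read in the same comparison, since U2OS derives from bone. Among the osteoblast markers 6 of 9 were measured, and SP7, COL1A2 and IBSP had no probe past the detection filter in either line. Of these 6, SPP1 and SPARC were higher and COL1A1, ALPL and RUNX2 lower in liganded ERβ, and BGLAP was not called. Their summed linear level was 39970 to 45230 on the liganded ERα arrays and 15970 to 19300 on the liganded ERβ arrays, and the uninduced lines lay at 45050 to 52170 and 15320 to 16460. COL1A1 alone, at mean log2 levels of 14.87 in liganded ERα and 9.20 in liganded ERβ, made up most of the ERα sums. The sums therefore do not describe the other osteoblast markers. A second RUNX2 probe, at -0.07 in the liganded cells, was not called (adjusted p = 0.905). Of 8 fibroblast markers 1 (S100A4) was higher and 6 were lower, among them THY1 and FAP, with sums of 34430 to 36750 in ERα and 11870 to 12690 in ERβ. Over all genes 22.6% were higher and 24.3% lower. Epithelial, blood and endothelial markers are given beside the gene groups they touch.

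Interferon-stimulated genes, which cells normally switch on when they sense virus or receive interferon, were mostly higher in ERβ cells. Of 30 measured members 25 were higher and 0 lower in liganded ERβ, against 22.6% higher over all genes, and the list's median difference was 1.39. Before induction 20 were higher and 0 lower, with a median of 0.85. With doxycycline alone 25 were higher and 0 lower, with a median of 1.37, against 25.1% higher over all genes. For 10 members the difference grew with treatment and for 1, IRF1, it shrank, against 8.04% and 10.3% of all genes. The list therefore stood above the ERα line at both stages, and the proximal promoters of its members are shown before their values.

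The promoters are shown because most of them hold the interferon-stimulated response element, the DNA motif bound by the interferon-activated factor complex and by interferon regulatory factors. RefSeq promoters (GRCh38.p14, 250 bases before to 50 after the annotated start) were found for 25 of the 30 genes, and 18 of these (72%) hold GAAANNGAAA on either strand. The same letters occur in 437 of 10937 measured genes with a promoter (4.0%) and in 1255 of all 35116 promoter windows (3.57%). Of the 2530 genes with a promoter that were higher in liganded ERβ, 4.74% hold it, and of the 2605 lower ones 3.42%. The motif also lies in the promoters of IFITM1, MX1 and IFITM3, whose liganded differences of 0.43, 0.33 and -0.12 were not called. OASL, higher by 5.20, was not among the genes that hold it. The stretches below are from members with liganded differences of 2.56 to 5.71. A match is a description of the letters, not a measured binding site. In the following 50-base stretches, read along the gene's strand, capitals mark the motif or its reverse complement. The stretches lie at chr19:17405731-17405780 (minus strand) for BST2, chr2:6877612-6877661 (plus) for RSAD2, chr1:1013364-1013413 (plus) for ISG15, chr10:89392487-89392536 (plus) for IFIT1, chr10:89332415-89332464 (plus) for IFIT3 and chr12:112938311-112938360 (plus) for OAS3.
BST2: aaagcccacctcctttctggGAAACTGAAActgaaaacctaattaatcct
RSAD2: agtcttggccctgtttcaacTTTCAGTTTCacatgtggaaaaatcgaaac
ISG15: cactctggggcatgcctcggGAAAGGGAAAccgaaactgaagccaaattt
IFIT1: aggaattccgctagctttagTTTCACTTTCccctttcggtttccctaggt
IFIT3: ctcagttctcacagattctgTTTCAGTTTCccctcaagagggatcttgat
OAS3: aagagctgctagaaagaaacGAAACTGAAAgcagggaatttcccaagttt

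BST2, also called tetherin, holds budding virions on the cell surface. Its levels were 12.39, 12.63 and 12.62 on the liganded ERβ arrays against 6.52, 7.08 and 6.92 on the liganded ERα arrays, 52.2-fold higher (5.71 ± 0.14, adjusted p = 3.02e-13). It had been 5.55 higher in the uninduced lines at 12.70, 12.42 and 12.56 against 7.10, 6.83 and 7.08, and the change of 0.15 was not called (adjusted p = 0.699). BST2 thus carried the same gap at both stages, and so did OAS3, a sensor enzyme for double-stranded RNA, with differences of 2.56 and 2.58. IFIT3, which with its relatives binds viral RNA, read 14.09, 14.09 and 13.99 against 9.08, 9.31 and 9.48 in the liganded cells, 27.2-fold higher, and its change of 0.55 was not called (adjusted p = 0.208).

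Other members separated further. RSAD2, or viperin, an antiviral enzyme of the endoplasmic reticulum, stood at 10.79, 10.88 and 11.16 in liganded ERβ cells and was undetected on all liganded ERα arrays, at least 26.8-fold apart. In the uninduced lines it was at 8.92, 8.71 and 9.15 and again undetected in ERα, at least 6.20-fold apart, and the change was called (adjusted p = 6.36e-06). OASL, which enhances RNA sensing, read 14.25, 14.47 and 14.44 against 9.10, 9.22 and 9.22, and its difference of 5.20 ± 0.17 exceeded the uninduced 2.01 ± 0.17 (adjusted p of the change 5.07e-07). The ERβ arrays of these genes were high at both stages and higher after treatment, with no overlap between lines. With doxycycline alone the RSAD2 mean in ERβ was 11.97, above its mean of 10.94 with E2. The OASL mean in ERβ was 14.35 with doxycycline alone and 14.39 with E2. ISG15, a ubiquitin-like protein, had a difference of 4.28 against 1.49 before induction, and IFIT1 of 3.35 against 1.77. OAS2 was undetected in both uninduced lines and read 7.78, 8.01 and 7.62 in liganded ERβ against no detected ERα array, at least 3.04-fold apart, and 7.38, 8.61 and 6.6 with doxycycline alone.

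The members that were not called in the liganded cells were IFITM1, IRF1, MX1, IFITM2 and IFITM3, with differences of 0.43, 0.36, 0.33, 0.09 and -0.12. Blood markers were read beside this list, since white blood cells express these genes strongly. Only LYZ, CD14 and CD68 of 8 were measured, and PTPRC, CD3E, HBB and HBA1 had no probe past the detection filter. LYZ, which encodes lysozyme, was higher in liganded ERβ, at 8.38, 8.19 and 8.0 against 6.51, 6.80 and 6.30 (adjusted p = 1.87e-04), and CD14 and CD68 differed by 0.17 and 0.32 without being called. The sum of the 3 was 1827 to 1970 in ERβ and 1126 to 1759 in ERα, and its part in the interferon difference was not tested.

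Genes of antigen presentation lay on the same side. Of 15 measured HLA and processing genes 11 were higher and 2 lower in liganded ERβ, against 22.6% and 24.3% of all genes. Before induction 10 were higher and 1 lower, against 26.4% and 24.1%. HLA-C, a class I molecule, read 9.06, 8.95 and 8.76 against 5.66, 5.43 and 6.35, of which 1 was detected, and was 8.64-fold higher (adjusted p = 5.73e-09), after at least 4.98-fold in the uninduced lines. HLA-DMB, which loads peptides on class II molecules, was 7.73-fold higher. These are members of a polymorphic family with close copies, so a probe may not tell them apart or may miss the allele of a line. No change of the HLA list moved up and 2 moved down, against 8.04% and 10.3% of all genes. TAP2, the peptide transporter subunit, was higher at both stages and went from 1.55 to 1.00, and NLRC5, a regulator of class I genes, was undetected in both uninduced lines and at -0.91 with ligand, where 2 ERα arrays detected it.

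CCL5, a chemokine that attracts T cells, was among the largest differences, with 12.10, 12.49 and 12.17 in liganded ERβ against 6.16, 5.36 and 6.31 in liganded ERα, of which 1 was detected. It was 79.5-fold higher on the fitted scale (6.31 ± 0.34, adjusted p = 1.49e-09), and had been 4.68 higher before induction, again with 1 detected ERα array, so these sizes rest on ERα levels near or below background. The list of NF-kB targets and cytokines as a whole was split, with 6 of 19 higher and 7 lower in liganded ERβ, against 8 and 3 before induction. Shares over all genes were 22.6% and 24.3% with ligand, and 26.4% and 24.1% before induction. IL24, a cytokine of the IL-10 family, was higher at both stages, by 3.00 and 3.22. CSF1, the macrophage and osteoclast growth factor, was undetected in both uninduced lines and read 7.70, 7.85 and 7.79 in liganded ERβ against no detected ERα array, at least 3.00-fold apart. With doxycycline alone it was already higher in ERβ, at 7.66, 8.47 and 7.03 (1.86, adjusted p = 7.72e-05). CXCL8, CCL2 and IL6, described below, were all higher in the uninduced ERβ line and lower or level with ligand.

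**Figure D2:**
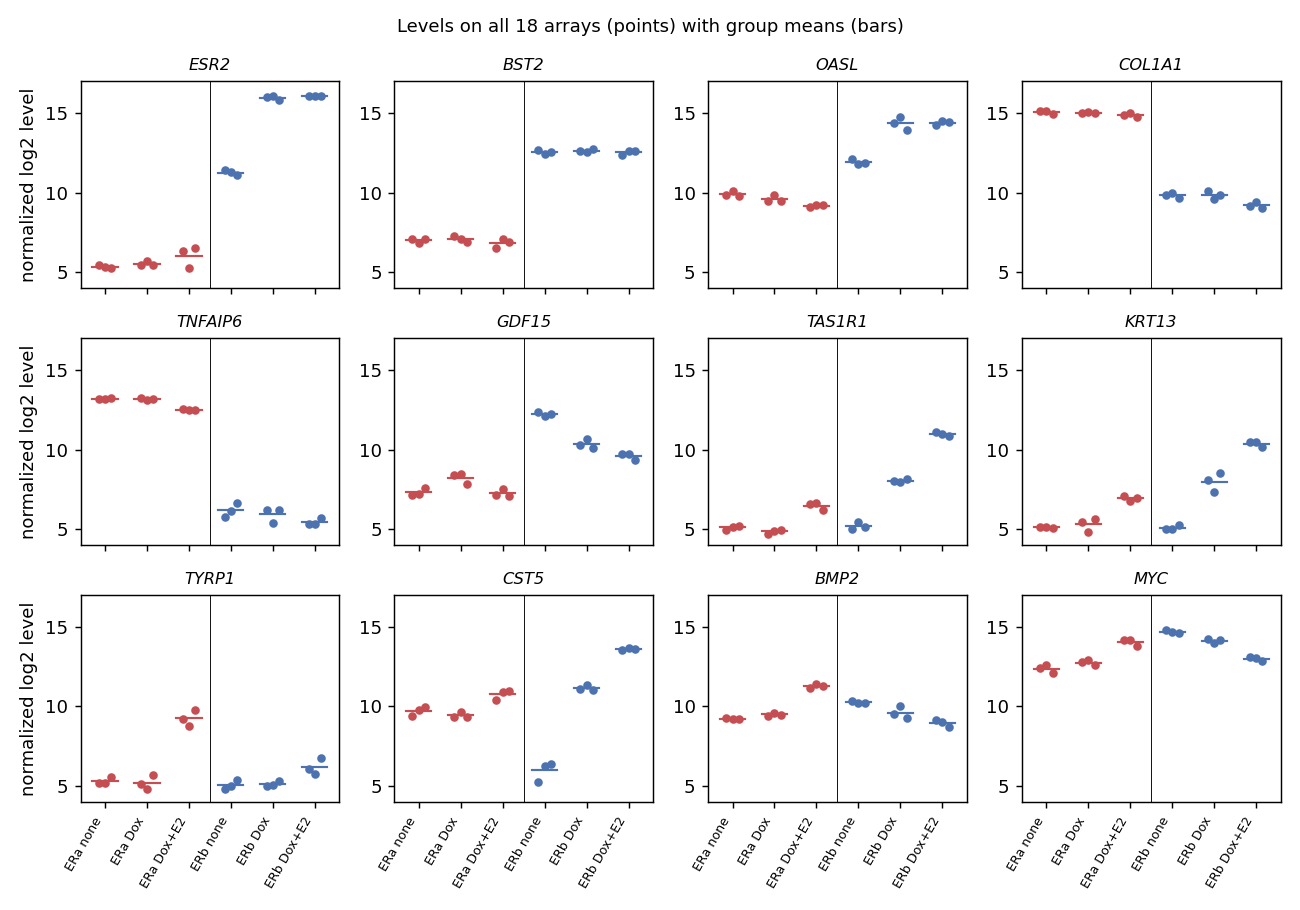
Normalized log2 levels of 12 genes on all 18 arrays (points) with group means (bars), ERα groups in red on the left and ERβ groups in blue on the right of each panel, in the order no agent, doxycycline, and doxycycline plus E2. BST2 and COL1A1 keep their gap across all treatments, and TNFAIP6 is lower in ERβ throughout, at levels near or below background there. KRT13 and TAS1R1 separate only after induction, and CST5, BMP2 and MYC cross over.

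Several of the other large differences higher in ERβ were also present before induction. HTR3A, a subunit of the serotonin-gated ion channel, read 12.50, 12.66 and 12.59 against 7.34, 7.47 and 7.43 in the liganded cells, 36.0-fold higher, with an uninduced difference of 5.74; a second probe gave 4.09 in the liganded cells and another probe 0.45, which was not called (adjusted p = 0.15). HSPB3, a small heat shock protein of muscle, was at least 23.4-fold higher, and KYNU, kynureninase of tryptophan breakdown, was 22.5-fold higher at 13.28, 13.20 and 13.20 against 8.57, 8.89 and 8.75. ADD2, a spectrin-binding protein, was higher by 4.45 on its brightest probe and by 0.71 on another. For HTR3A, HSPB3, KYNU and ADD2 the change with treatment was not called.

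KLRC2 and KLRC3, lectin receptors known from natural killer cells, were higher by 5.31 ± 0.16 and 4.73 ± 0.23 in liganded ERβ and by 2.98 and 2.33 before induction. KLRC2 read 14.66, 14.65 and 14.89 against 9.44, 9.18 and 9.64. These genes are near-identical copies of each other, so their probes may read both, and another KLRC2 probe gave 2.64 in the liganded cells and -0.04 before induction.

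Matrix genes were mostly lower in ERβ cells. Of 37 measured collagens and matrix proteins 24 were lower and 2 higher in liganded ERβ, with a median of -0.72, against 24.3% lower over all genes. Before induction 30 were lower and 2 higher, with a median of -0.84. COL1A1, the main collagen chain of bone, read 9.15, 9.41 and 9.03 in liganded ERβ and 14.88, 14.98 and 14.76 in liganded ERα, a 51.2-fold difference (-5.68 ± 0.13, adjusted p = 1.74e-13). The uninduced gap was -5.22, at 9.86, 9.99 and 9.64 against 15.13, 15.12 and 14.92, and the change was not called (adjusted p = 0.118). Every ERβ array of COL1A1 lay far below every ERα array at both stages.

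COL3A1, a fibrillar collagen of soft tissue, was lower by 10.3-fold (9.57, 9.39 and 9.50 against 12.93, 12.75 and 12.86). BGN, the proteoglycan biglycan, was undetected in liganded ERβ and at least 8.85-fold lower. COL11A1, a cartilage collagen, was lower by 8.25-fold on its brightest probe, after 12.3-fold in the uninduced lines. Its other probes gave -2.75 and -1.27 with ligand. Before induction they gave -2.89 and -0.27, the last not called (adjusted p = 0.58). Between the stages 7 members of the matrix list shifted up and 1 down, against 8.04% and 10.3% of all genes. In this list 1 member, the collagen cross-linking enzyme LOX, turned from -0.92 to 1.18. LOX and COL13A1 were the members of this list higher in liganded ERβ. COL15A1, a collagen that is not on the list, was also higher there, by 2.12.

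Other genes of the ERα line shared this pattern. TNFAIP6, a hyaluronan-binding protein of inflamed matrix, read 12.55, 12.45 and 12.48 in liganded ERα and was undetected on all liganded ERβ arrays, at least 69.8-fold apart. IL13RA2, a decoy receptor for interleukin-13, was at least 32.8-fold lower in liganded ERβ and at least 33.3-fold lower before induction. VAMP5, a membrane fusion protein of muscle, was at least 21.5-fold lower, and before induction at least 23.0-fold. APOD, a lipid carrier, was lower by 51.7-fold and MFAP5, a microfibril protein, by 35.9-fold, with 2 and 1 of their liganded ERβ arrays detected. None of these genes had a called change. IL13RA2 and VAMP5 were undetected on all ERβ arrays at both stages, and TNFAIP6 was detected on 1 uninduced ERβ array. For these genes a change of the gap was therefore not measured.

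Crystallins, the structural proteins of the eye lens, and a muscle gene were also among the 10 largest differences. CRYBA4 read 12.52, 13.08 and 13.12 in liganded ERα and was undetected in liganded ERβ, at least 92.9-fold apart; in the uninduced ERβ line it was detected, at 9.01, 8.70 and 9.11, and its difference moved by -1.47 (adjusted p = 0.00404). CRYBB1 was at least 14.4-fold lower and CRYGS 46.1-fold lower. SLN, sarcolipin, which regulates the calcium pump of muscle, was at 11.87, 11.85 and 11.70 against no detected ERβ array, at least 43.3-fold apart.

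Proteases and their regulators were mostly lower too, 14 of 23 with 3 higher, against 24.3% and 22.6% of all genes. Before induction 13 were lower and 3 higher, against 24.1% and 26.4%. MMP7, matrilysin, was lower by 8.27-fold (7.04, 7.35 and 7.39 against 10.09, 10.28 and 10.55), MMP2, a gelatinase, by 3.25-fold, and ADAMTS1, another metalloprotease, differed by -2.06. PLAU, the urokinase that activates plasminogen, went the other way, 5.34-fold higher at 10.05, 10.21 and 9.86 against 7.92, 7.56 and 7.39. Of 22 TGF-beta and YAP genes 9 were lower and 3 higher in liganded ERβ, against the same 24.3% and 22.6%. CCN2, a matricellular target of both pathways, was lower by 3.89-fold, and LTBP1, which stores latent TGF-beta, by 4.77-fold on its brightest probe, with a second probe at -0.40 not called (adjusted p = 0.066).

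**Figure D3:**
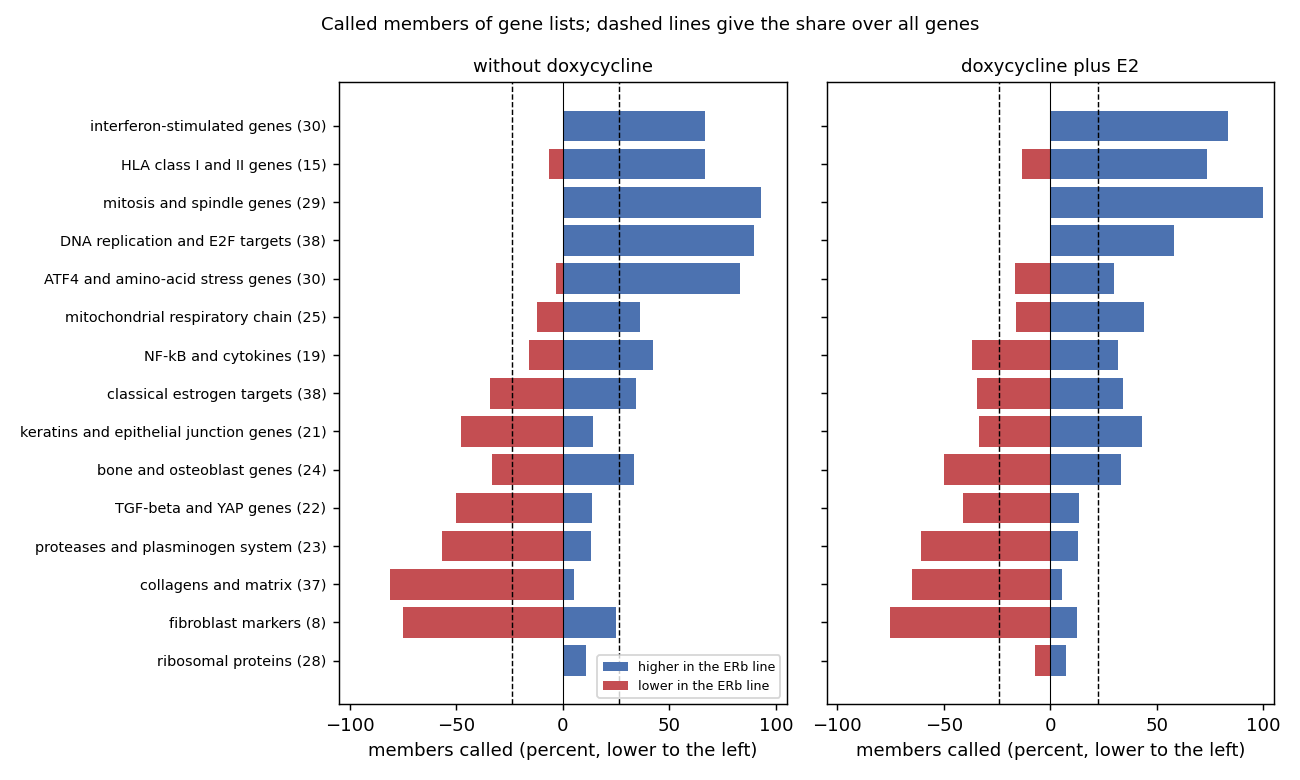
Percent of the measured members of 15 gene lists (number in brackets) called higher (blue, right) or lower (red, left) in the ERβ line, without doxycycline and with doxycycline plus E2. Dashed lines mark the share of all 13505 genes, 26.4% and 24.1% on the left and 22.6% and 24.3% on the right. The mitosis list is higher throughout, the matrix list lower throughout, and the ATF4 list falls from 25 of 30 higher to 9 of 30.

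Cell cycle genes differed as 2 groups. All 29 measured mitosis and spindle genes were higher in liganded ERβ (median 1.11), and 27 were higher before induction (median 0.85). Over all genes the higher shares were 22.6% and 26.4%. MKI67, which encodes the proliferation marker Ki-67, read 9.37, 9.54 and 9.35 against 6.91, 7.32 and 7.33, a difference of 2.24 ± 0.16 (adjusted p = 2.86e-08) after 1.75 in the uninduced lines. KIF2C, a spindle kinesin, was 2.94-fold higher, AURKA, the Aurora A kinase, 2.69-fold, and FOXM1, the transcription factor of mitotic genes, was higher by 1.28. The mitotic difference grew for 3 members and shrank for 0, against 8.04% and 10.3% of all genes. For 26 of the 29 its change was not called, and under other settings it grew for 0 to 7 members.

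The difference of the replication genes mostly narrowed between the stages while staying on the same side. Of 38 measured DNA replication and E2F target genes 34 were higher in the uninduced ERβ line (median 0.93) and 22 in the liganded one (median 0.34), and 0 were lower at either stage. Over all genes 26.4% and 22.6% were higher at these stages. The difference shrank for 23 members and grew for 0, where 10.3% of all genes moved down and 8.04% up. MCM2, a subunit of the replicative helicase, differed by 1.06 before induction and by 0.30 in the liganded cells. In the ERα line it rose with the treatment by 0.61 (adjusted p = 2.05e-04), and in the ERβ line it moved by -0.16, which was not called (adjusted p = 0.224). CDC6, which loads the helicase, narrowed from 1.67 to 0.38, and rose by 0.72 in ERα and fell by 0.57 in ERβ. RRM2, the ribonucleotide reductase subunit, kept its gap, at 1.90 and 1.80. The count of members with a shrinking difference fell to 8 when arrays were scaled by a median shift in place of quantiles, and reached 27 under other settings.

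MYC, the growth-promoting transcription factor and an early estrogen target of breast cells, turned direction. It read 13.11, 13.05 and 12.86 in liganded ERβ against 14.17, 14.14 and 13.79 in liganded ERα, 2.04-fold lower (-1.03 ± 0.13, adjusted p = 1.33e-05). In the uninduced lines it had been 2.32 higher, at 14.77, 14.68 and 14.63 against 12.43, 12.59 and 12.10. The ERα line rose by 1.66 and the ERβ line fell by 1.69 with treatment, and the arrays did not overlap at either stage.

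The ATF4 list, genes of amino-acid supply and the integrated stress response, marked the uninduced ERβ line and largely levelled out. Before induction 25 of 30 were higher and 1 lower, against 26.4% and 24.1% of all genes, with a median of 1.27. With doxycycline alone 7 were higher and 3 lower, against 25.1% and 24.1% of all genes, and the median was already 0.03. In the liganded cells 9 were higher and 5 lower, against 22.6% and 24.3%, with a median of 0.12. The difference shrank for 21 members and grew for 0, where 10.3% of all genes moved down and 8.04% up, and 14 were no longer called. FGF21, a stress hormone, read 9.95, 9.69 and 9.51 in the uninduced ERβ line, at least 10.7-fold above the undetected ERα arrays, and in the liganded cells 6.46, 7.05 and 6.65 against 7.27, 7.49 and 7.37, which was not called (-0.65 ± 0.42, adjusted p = 0.218) unless the 6 liganded arrays were fitted alone (adjusted p = 0.0154). PSAT1, a serine synthesis enzyme, went from 1.79 to 0.25. GDF15, a secreted stress cytokine, remained higher by 2.34 at 9.72, 9.74 and 9.35 against 7.14, 7.54 and 7.11, after 4.90 before induction. DDIT3, the stress factor CHOP, was higher at both stages, by 1.51 and 1.28.

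**Figure D4:**
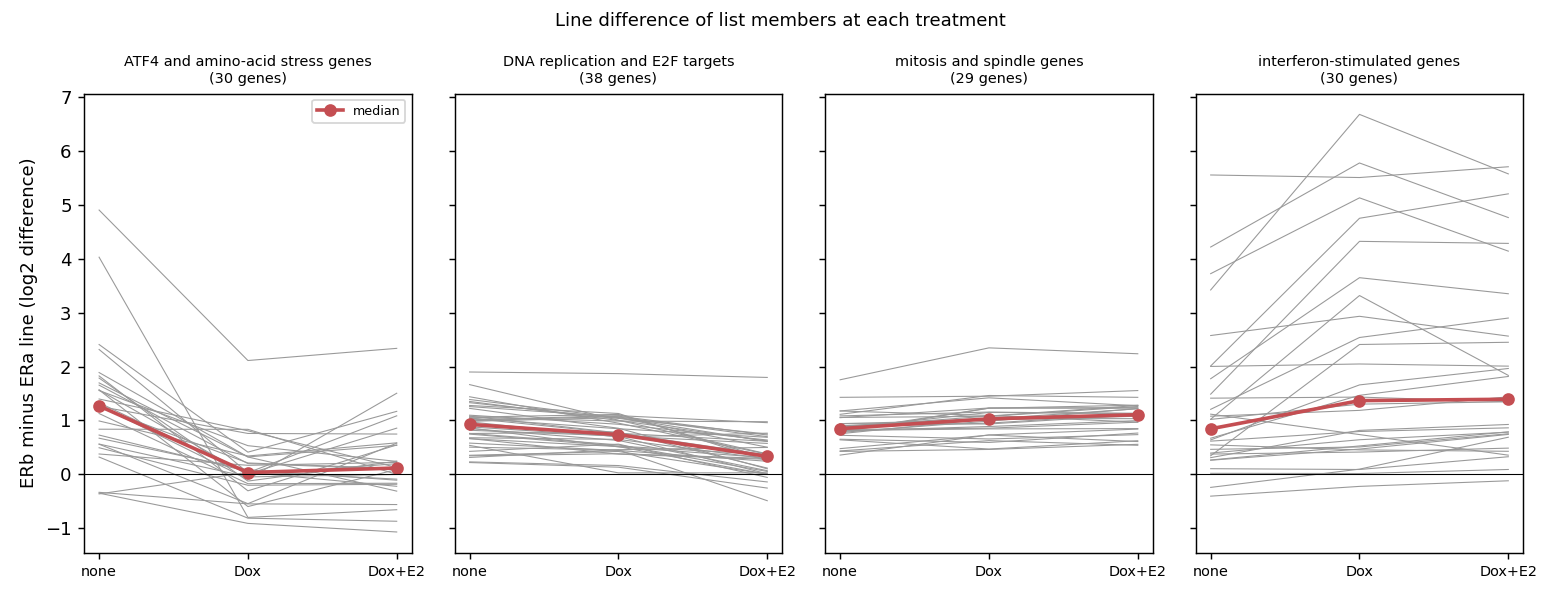
ERβ minus ERα difference (log2) of each measured member (grey lines) and the list median (red) for 4 gene lists, at the stages with no agent, with doxycycline alone and with E2 added. The ATF4 median falls from 1.27 to 0.12 and the replication median from 0.93 to 0.34, while the mitosis median goes from 0.85 to 1.11 and the interferon median from 0.85 to 1.39. With doxycycline alone these medians were 0.03, 0.74, 1.03 and 1.37, in the same order.

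The stage at which a liganded difference was first called was read from the group with doxycycline alone, in which the lines differed at 49.3% of genes, 25.1% higher and 24.1% lower in ERβ. Of the 6335 liganded calls, 4204 (66.4%) were called in their direction without any agent, a further 929 (14.7%; 525 higher, 404 lower) with doxycycline, and 1202 (19%; 514 higher, 688 lower) only with doxycycline and E2. Among the 645 genes not called uninduced and called with ligand, with a called change, 213 of 312 higher genes and 124 of 333 lower genes were already called with doxycycline alone. In the liganded minus uninduced change of each line, 166 of the 312 higher genes rose in ERβ with no called change in ERα, and 93 rose in both lines. Of the 333 lower genes, 181 fell in ERβ with no called change in ERα and 65 rose in ERα with no called change in ERβ. These counts use the arrays that define the class, so they describe it and are no separate test.

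TAS1R1, a subunit of the umami taste receptor, led the genes that were higher only after treatment. It read 11.11, 11.0 and 10.82 in liganded ERβ against 6.56, 6.64 and 6.19 in liganded ERα, 22.8-fold apart (adjusted p = 2.73e-12), and was undetected in both uninduced lines. It rose by 5.77 in the ERβ line and by 1.35 in the ERα line, so it rose in both and further in ERβ, although the rises start from undetected levels and their sizes are fitted values. CLEC4M, a lectin receptor of liver endothelium, read 9.44, 9.54 and 9.25 and was undetected on all liganded ERα arrays, at least 9.26-fold apart. With doxycycline alone both genes were already at intermediate levels in ERβ, 8.0, 7.94 and 8.13 for TAS1R1 and 7.39, 7.49 and 7.28 for CLEC4M. CYP19A1, aromatase, which makes estradiol from androgens, read 10.62, 10.52 and 11.10 against 6.78, 7.06 and 6.75, 14.8-fold apart, and its rise, from undetected levels, was 5.12 in ERβ and 1.68 in ERα. Other CYP19A1 probes gave 4.04 and 1.41.

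PTGER3, a prostaglandin E2 receptor, was 14.7-fold higher at 10.36, 10.39 and 10.56 against 6.22, 6.26 and 7.20, with 2.47 and 1.19 on other probes. MMP12, the macrophage elastase, was detected only in treated ERβ cells, at 8.96, 8.79 and 8.85 with ligand, at least 6.34-fold apart. The keratins of this class are proteins of stratified and simple epithelia. KRT13 read 10.50, 10.48 and 10.15 against 7.06, 6.80 and 6.93, 10.9-fold apart (3.45 ± 0.24, adjusted p = 2.25e-08). KRT19 was 4.43-fold higher at 13.55, 13.49 and 13.50 against 11.33, 11.47 and 11.31, and its rise was 8.57 in ERβ and 6.55 in ERα from undetected levels, so it rose in both lines.

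Of 21 measured keratins and epithelial junction genes 9 were higher and 7 lower in liganded ERβ, against 3 and 10 before induction, and 9 shifted up. Over all genes 22.6% were higher and 24.3% lower with ligand, 26.4% and 24.1% before induction, and 8.04% shifted up. KRT15 was higher by 2.27, as were KRT72 and KRT73 by 1.27 and 0.54, whereas KRT14, a basal keratin, stood at 9.16, 9.38 and 9.28 in ERα and was undetected in ERβ, at least 7.48-fold apart. Keratins share sequence, so probes may not tell all of them apart. EPCAM, an epithelial adhesion protein, was lower by 4.74-fold on its brightest probe (9.89, 9.67 and 9.64 against 11.87, 11.98 and 12.07), and a second probe at -0.42 was not called. CLDN1, a tight junction protein, was lower only after treatment, at 8.90, 9.06 and 8.79 against 11.45, 11.23 and 10.90, having fallen by 2.49 in ERβ. Of 10 measured epithelial markers 4 were higher and 3 lower, with sums of 26520 to 28480 in ERβ and 25730 to 27480 in ERα, and their part in the keratin differences was not tested. ESRP1, an epithelial splicing factor, had no probe past the detection filter.

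Of the 6 genes with the largest differences that were lower in ERβ only after treatment, 4 rose in ERα and 2, TGFB2 and CLDN1, fell further in ERβ. TYRP1, a melanin synthesis enzyme, read 9.22, 8.79 and 9.77 in liganded ERα against 6.05, 5.75 and 6.76 in liganded ERβ, 8.40-fold apart (-3.07 ± 0.29, adjusted p = 5.17e-07). It rose by 3.92 in ERα and by 1.12 in ERβ from undetected levels, and 1 of the liganded ERβ arrays was detected. SLC6A4, the serotonin transporter, read 8.31, 8.26 and 8.49 in ERα and was undetected in ERβ, at least 3.95-fold apart. SLC47A1, a drug and cation exporter, was 5.69-fold lower, with 1 liganded ERβ array detected, and PRR35, a proline-rich protein, was at least 2.00-fold lower. TGFB2, a TGF-beta ligand, reached its difference by the other route: it was detected in every group but liganded ERβ, and read 8.94, 8.84 and 8.76 in ERα, at least 5.58-fold apart. It fell by 2.9 in the ERβ line.

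Classical estrogen targets of breast cells were divided evenly. Of 38 measured, 13 were higher and 13 lower in liganded ERβ, the same numbers as before induction, and 10 shifted up and 9 down. Of all genes 22.6% were higher and 24.3% lower with ligand, and 8.04% shifted up and 10.3% down. PGR and TFF1 had no probe past the detection filter. GREB1, a coactivator of the receptor, read 12.09, 11.85 and 12.14 against 10.50, 10.54 and 10.73, a difference of 1.44 after 0.95 before induction with no called change (adjusted p = 0.0816). It rose in both lines, by 3.17 in ERβ and 2.68 in ERα. CCN5, a matricellular protein, read 11.88, 11.96 and 11.70 against 8.44, 8.45 and 8.47, a difference of 3.39. It was undetected on all uninduced arrays, so its change from that stage was not measured. With doxycycline alone CCN5 was undetected in ERα and had a mean of 11.38 in ERβ, at least 33.6-fold apart. TFF3, a trefoil peptide, was the reverse, at 6.79, 7.09 and 7.27 in ERα and undetected in ERβ, at least 1.60-fold apart, and CXCL12, a chemokine, was lower at -1.70. The palindromic estrogen response element GGTCANNNTGACC was found in 4 of 10937 promoters of measured genes (0.0366%) and in 0 of the 245 and 257 promoters of the higher and lower genes called with ligand and not uninduced, with a called change; these windows hold only the bases next to the start.

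Genes that turned direction crossed between the stages. CST5 and CST1, secreted inhibitors of cysteine proteases, were lower in the uninduced ERβ line and higher with ligand, by 2.83 and 3.19. CST5 read 13.55, 13.64 and 13.61 against 10.38, 10.93 and 10.99 in the liganded cells, and 5.27, 6.29 and 6.40 against 9.43, 9.79 and 9.94 before induction, where 1 ERβ array was detected. CST1 was undetected in uninduced ERβ and at least 1.29-fold lower there. CST1 has close relatives in its gene family, and its probe may read more than 1 of them. HAVCR2, the immune checkpoint receptor TIM-3, went from -1.52 to 2.02, and COL15A1, a basement membrane collagen, from -1.40 to 2.12. FGD6, an activator of the GTPase CDC42, went from -0.67 to 2.40. CASQ2, the calcium store protein of heart muscle, was higher by 2.34 with ligand, but was undetected in both uninduced lines, so the direction of its uninduced difference was not measured. For CST5, CST1, HAVCR2, COL15A1 and FGD6 the ERβ arrays lay below the ERα arrays before treatment and above them after it.

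BMP2, a bone morphogenetic protein that drives osteoblast formation, read 9.12, 9.01 and 8.72 in liganded ERβ against 11.17, 11.39 and 11.28 in liganded ERα, 5.02-fold lower (adjusted p = 6.93e-09). It had been 1.02 higher before induction, rose by 2.04 in ERα and fell by 1.31 in ERβ. NOG, a secreted inhibitor of these proteins, turned as well, from 0.55 to -1.37, and fell in both lines, by 0.94 in ERα and by 2.87 in ERβ. Of 24 measured bone and osteoblast genes 8 were higher and 12 lower in liganded ERβ, against 22.6% and 24.3% of all genes. Before induction 8 were higher and 8 lower, against 26.4% and 24.1%, and 6 turned direction between the stages. The others that turned were ID1 and SMAD7, up to 1.22 and 0.71, and SMAD6 and TNFRSF11B (osteoprotegerin, which blocks osteoclast formation), down to -0.58 and -0.73. The inflammatory chemokines CXCL8 and CCL2 turned downwards too. CXCL8 read 11.52, 11.33 and 11.63 against 13.58, 13.50 and 13.64 with ligand (4.23-fold lower), after 1.26 higher without, and CCL2 went from 1.58 to -2.05. GALR2, a galanin receptor, was undetected in liganded ERβ and at least 1.55-fold lower, and undetected in both uninduced lines.

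Genes whose uninduced difference was lost are the complement of these. IL6, an inflammatory cytokine that also promotes bone resorption, read 11.31, 10.84 and 11.11 against 7.30, 7.79 and 7.45 in the uninduced lines (3.58 ± 0.20, adjusted p = 2.31e-09). With ligand it read 7.90, 7.85 and 7.73 against 7.78, 7.77 and 7.57, a difference of 0.12 ± 0.20 that was not called (adjusted p = 0.677), and it fell by 3.26 in ERβ. On the other side EPHA4, an ephrin receptor, was undetected in uninduced ERβ and at least 8.86-fold lower there, and read 8.19, 7.86 and 7.97 against 8.27, 7.91 and 8.01 with ligand, and it rose by 2.27 in ERβ and fell by 1.5 in ERα. MYLK2, a myosin kinase of skeletal muscle, was at least 11.8-fold lower before induction and differed by -0.27 ± 0.18 with ligand. PKIB, an inhibitor of protein kinase A, went from -2.39 to -0.01. GPER1, the membrane estrogen receptor, went from -2.35 to -0.32 ± 0.13 on its brightest probe. The latter was not called (adjusted p = 0.0648) but was called under several alternative settings, so its loss of difference is not firm. A second GPER1 probe gave -0.59 before induction, which was not called (adjusted p = 0.0635), and 0.11 with ligand. The large uninduced difference thus rests on 1 probe.

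Lists without a common direction are given by their counts in the liganded comparison, where 22.6% of all genes were higher and 24.3% lower. Immediate-early and AP-1 genes were higher for 6 and lower for 9 of 26; DUSP5, a phosphatase of ERK, was higher by 2.72 and SPRY2, an inhibitor of receptor tyrosine kinase signalling, lower at -1.87, each as before induction. Of 24 transporters 6 were higher and 10 lower; SLCO2A1, the prostaglandin transporter, was 5.79-fold lower after 20.8-fold before induction, and it read 11.12, 11.14 and 11.04 against 13.54, 13.71 and 13.65. Neuronal and neuroendocrine genes were higher for 7 and lower for 12 of 24, with SCG5, a chaperone of hormone-processing enzymes, 8.75-fold higher and SYT1, a calcium sensor of synaptic vesicles, undetected in ERβ and at least 4.35-fold lower. HOX genes split 8 and 5 of 26, clustered protocadherins 5 and 5 of 25, and cancer-testis antigens 5 and 6 of 25. In the last list SPANXA1 was higher by 3.78 on its brightest probe and XAGE2 lower at -2.30, both families of near-identical copies. Other SPANXA1 probes gave 4.34 and 0.09, the latter not called (adjusted p = 0.899). Mitochondrial respiratory chain genes were higher for 11 and lower for 4 of 25, at differences between -0.62 and 1.09.

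Ribosomal protein genes were called for 4 of 28 (2 higher, 2 lower), against 46.9% of all genes, and their median difference was 0.015. Their median level in the liganded groups was 16.05, next to the highest of any gene at 16.13, where the scale may compress differences, so their steadiness was not measured. Endothelial markers were called for 0 of 5, against 22.6% and 24.3% of all genes, with sums of 3500 to 4320 in ERβ and 3912 to 4726 in ERα.

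The share of called genes varied between chromosomes. On chromosome 15, 44.5% of 425 measured genes were higher and 10.1% lower in liganded ERβ, with 45.6% and 12.9% before induction and medians of 0.33 and 0.28. On chromosome 22, 52.1% of 332 genes were lower and 9.34% higher, with 47.3% and 10.2% before induction and medians of -0.41 and -0.36. Both lie apart from the shares over all genes, 22.6% higher and 24.3% lower. The number of chromosome copies in each line was not measured.

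**Figure D5:**
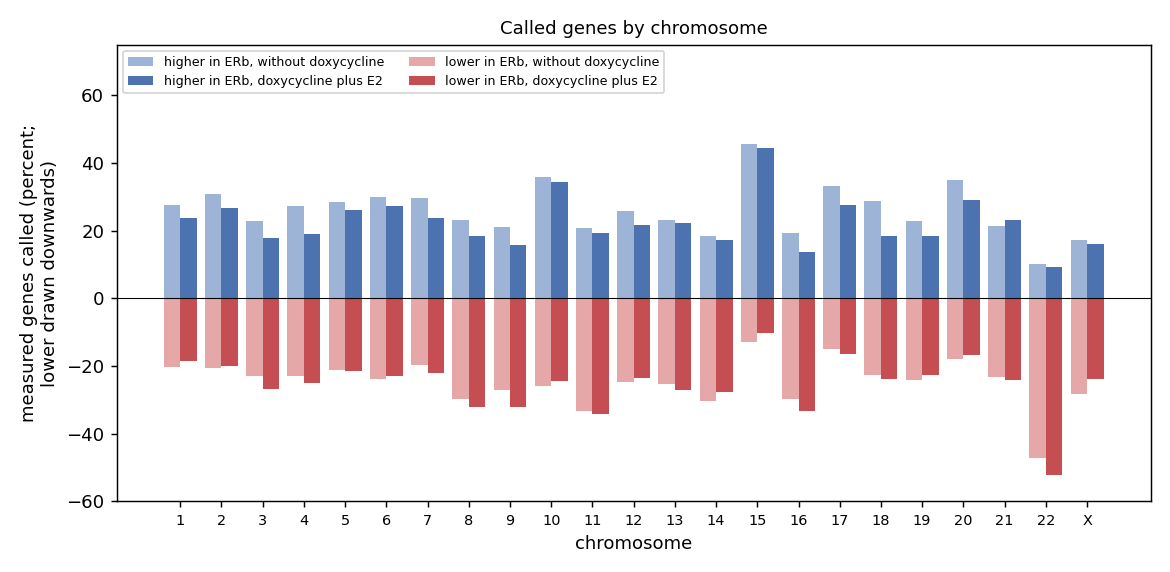
Percent of measured genes on each chromosome called higher (blue, upward) or lower (red, downward) in the ERβ line, in pale colours without doxycycline and in full colours with doxycycline plus E2. Chromosome 15 has the largest higher share, 45.6% and 44.5%, and chromosome 22 the largest lower share, 47.3% and 52.1%.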

How the data were processed

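Total RNA of 18 samples, 750 ng each per the labels' protocols, was labelled with biotin and read on Illumina arrays. The authors deposited raw probe intensity values that, per the file headers, were not normalized, and beside each a detection p-value, again per the file headers. A table of processed intensity values was deposited too; the submitters' processing notes name lumi, no source used here gives its steps, and it served as an alternative. Raw medians were 217 to 251, and 19834 to 22485 probes (40.6% to 46.1%) were detected per array, with the lowest detected log2 level at 6.08 to 6.52. Columns of the treated groups are known only by group and column number.

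The intensity values were background-corrected and quantile-normalized (neqc, offset 16) with limma 3.58.1 in R 4.3.3, and are log2 levels. Of 48803 probes 27578 had 1 gene symbol. A probe was kept where 3 or more of the 18 arrays had a detection p under 0.01 (24226 probes), and the brightest by mean stood for its gene, giving 13505 genes. Probes of a gene that were called opposite to the one used numbered 35 of 4899 in the liganded and 62 in the uninduced comparison. Arrays of a group correlated at 0.984 to 0.994, no 2 arrays were identical, and the median SE of a difference was 0.139. The 6 group means were fitted to all 18 arrays (12 residual and 2.66 prior degrees of freedom), and 2-sided p-values were adjusted by Benjamini-Hochberg over all genes. The procedure was tested on simulated data. Where no array of a group detected a probe, "at least" sets the other group's mean against the lowest detected signal, and the fitted log2 value is no bound.

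Named genes are ESR1 and ESR2, the 10 largest liganded differences in each direction among called genes whose arrays do not overlap, the 6 largest per direction of the classes, and up to 4 called members of each of 26 lists. Further list members, among them MYC, MCM2, CDC6, PSAT1, ISG15, IFIT1, OAS2, OAS3, LOX, KRT19, GREB1 and NOG, were chosen after their values were seen. The comparison, members and lists were chosen with earlier results of these data known. In the normalized raw values, uninduced arrays with the same replicate number deviated together (correlations 0.211, 0.434 and 0.53). In the authors' processed values the same arrays did not (-0.119, -0.167 and -0.106). Whether the numbers pair the arrays is therefore not settled, and the main fit used no pairing. The treated columns of the raw table carry no replicate number. Promoters are from RefSeq.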

Additional observations from a re-analysis of the deposited data

Results flagged for a closer look

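The difference between the lines was not the same at both treatment stages for 2481 genes, by the test of the change itself in limma, and the values here are the change of the ERβ minus ERα difference (log2) from the uninduced to the liganded arrays for the named genes among them. Groups of 3 arrays are too small for a test of single outlying arrays. The receptor ESR2 changed by 4.10. Genes with a higher ERβ level at both stages that separated further were CCL5 (1.64), RSAD2 (2.15), KLRC2 (2.33), OASL (3.19) and KLRC3 (2.40). On the lower side CRYBA4 moved by -1.47 and SLN by -0.92, away from 0, and CRYGS by 0.90, towards it.

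Among genes called in the liganded but not in the uninduced cells, TAS1R1 changed by 4.42, CLEC4M by 4.13, CYP19A1 by 3.44, PTGER3 by 4.28, MMP12 by 3.45 and KRT13 by 3.49. In the other direction TYRP1 changed by -2.81, SLC6A4 by -2.75, TGFB2 by -2.32, SLC47A1 by -2.77, CLDN1 by -2.16 and PRR35 by -2.10. Genes that turned to higher in ERβ were CST1 (4.66), CST5 (6.56), FGD6 (3.06), COL15A1 (3.52) and HAVCR2 (3.53). Those that turned to lower were BMP2 (-3.35), CXCL8 (-3.34), CCL2 (-3.64), TCERG1L (-2.40) and ZNF485 (-2.23). CASQ2 (3.05) and GALR2 (-2.23) were undetected in both uninduced lines, so whether they turned was not measured. For every gene here that was undetected in a group, the change is a fitted value whose size was not measured.

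Differences that were no longer called with ligand belonged to FGF21 (-4.68), IL6 (-3.46), FAM9B (-2.07), IL36B (-1.73), SLCO4A1 (-2.10) and RIPPLY2 (-2.63), which had been higher in uninduced ERβ. They also belonged to EPHA4 (3.77), MYLK2 (3.51), LHFPL7 (2.47), MAMDC2 (2.49), PKIB (2.38) and GPER1 (2.03), which had been lower.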

How the results depend on the processing

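Of 139 named genes, 123 kept the direction of their liganded difference and their side of the threshold under every alternative run, and 16 did not. MAGEC2 reversed, to 0.42 (adjusted p = 0.141), without the detection filter, where another probe of the gene was used. HLA-G, UQCRC2, NDUFB10, RPL13, RPS18, RPS23, PCDHAC2 and RUNX2 lost their call under at least 1 alternative, HLA-G without array 7 or 8 of ERα or 9 of ERβ (adjusted p up to 0.145), and UQCRC2 under 7. GPER1, FAM9B, IL36B, SLCO4A1, LHFPL7, FGF21 and MYLK2 gained one, MYLK2 when the liganded arrays were fitted alone (adjusted p = 0.0303). With 1 array left out, the liganded count ran from 5627 to 5818, the uninduced one from 6159 to 6469, the doxycycline one from 6023 to 6330, the changes from 2101 to 2387, and the classes from 3320 to 3549 (kept), 544 to 661 (called with ligand and not uninduced), 304 to 350 (turned) and 656 to 782 (lost); the share of liganded calls already present ran from 62.1% to 68.3%. A median shift in place of quantiles gave 1432 changes, 425 genes called with ligand and not uninduced, 177 turned and 528 lost, and set the median uninduced difference at 0.135 in place of 0.036. The authors' processed values gave 4284 changes, 978 such genes and 622 turned, and a threshold of 0.01 gave 203 turned and 493 lost. The cause of these shifts was not tested, other than that a stricter threshold calls fewer genes. The replicate block, added to the authors' processed values, gave 7489 liganded calls and 3580 changes, and the paired fit of the uninduced arrays alone gave 6957 calls; the replicate block ended no call of a named gene in the text. In the authors' values same-numbered arrays correlated at -0.382 to -0.071. The alternatives for classes and lists were chosen after seeing the data. Levels under about 6.08 to 6.52 could not be seen.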
